A study of Mus musculus with 6 samples.

Results

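The Sox genes encode transcription factors that bind DNA through a shared domain, the HMG box, and are sorted into groups by how alike these boxes are. In the embryonic cortex the SoxB1 genes keep progenitors dividing and undifferentiated, SoxB2 and SoxC genes act as cells move towards neurons, SoxD proteins lack an activation domain of their own and modify the work of other Sox proteins, and SoxE genes drive the glial fate. Described here are 10 Sox genes of neural progenitors, 10 of the 52438 genes with values, chosen by name from the deposited table: Sox1, Sox2 and Sox3 (SoxB1), Sox21 (SoxB2), Sox4 and Sox11 (SoxC), Sox5 and Sox6 (SoxD), and Sox8 and Sox9 (SoxE). All 10 passed the filter on low values, a mean of 10 normalized counts over the samples, and were tested.

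RNA-seq was done on mouse neural stem cells (NSCs) taken from the cortex of mid-gestation embryos and kept as adherent cultures at 21% oxygen with bFGF and EGF, 3 samples labelled WT and 3 labelled Setd5+/-, the latter made with CRISPR-Cas9. Both groups shared the same medium and oxygen. The column names of the mutant samples point to a single clone, and all 3 samples of a genotype carry the same index and lane. These samples also differed by less than sampling noise. Per degree of freedom, the chi-square of read pairs was 0.959 to 0.981 for the 6 pairs of samples of like genotype, and 32.3 to 32.4 for the 9 pairs of unlike genotype. They were therefore counted as parts of 1 library, so n is 1 per genotype and no SD is given. The effects of genotype, of the clone and of the library with its index and lane cannot be told apart here, and each p-value compares the reads of 2 libraries, not the genotypes. Between 9995980 and 10004948 reads fell on genes in the WT samples and between 7143309 and 7146147 in the Setd5+/- samples. Intervals are 95% counting intervals and cover counting error only. Values are read counts divided by a size factor of the sample (normalized counts). A gene was called where the adjusted p of limma, with Benjamini-Hochberg adjustment over 16266 genes, was under 0.05.

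Setd5 itself, the mutated gene, stood at 2498, 2749 and 2780 normalized counts in WT and at 2151, 1990 and 2055 in Setd5+/- NSCs. It fell by 0.37 on the log2 scale (adjusted p = 3.13e-09), its values in the 2 libraries did not overlap, and the difference had the direction of the labels.

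Many of the members differ from each other even in the HMG box. The lines here show the same stretch of 48 bases of coding sequence from each gene, read 5′ to 3′ on the coding strand from the mouse transcripts of GENCODE M21 (GRCm38, the build also called mm10). It is shown because it is the longest run that any pair of these genes has in common, in Sox4 and Sox11, and because reads from such runs decide whether the genes can be told apart. Capitals mark bases that differ from Sox2.
Sox2: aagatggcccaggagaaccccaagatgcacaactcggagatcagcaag
Sox1: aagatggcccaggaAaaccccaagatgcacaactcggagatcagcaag
Sox3: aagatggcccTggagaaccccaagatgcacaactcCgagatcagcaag
Sox21: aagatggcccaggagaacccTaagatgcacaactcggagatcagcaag
Sox9: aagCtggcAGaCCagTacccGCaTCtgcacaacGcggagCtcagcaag
Sox8: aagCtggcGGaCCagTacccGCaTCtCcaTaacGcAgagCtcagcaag
Sox4: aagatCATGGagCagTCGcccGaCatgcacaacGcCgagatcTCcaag
Sox11: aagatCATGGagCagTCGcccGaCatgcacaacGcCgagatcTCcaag
Sox5: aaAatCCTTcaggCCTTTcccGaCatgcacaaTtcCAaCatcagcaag
Sox6: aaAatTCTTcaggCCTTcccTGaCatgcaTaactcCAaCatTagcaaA

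SoxC, SoxD and SoxE each stand apart in these letters, but SoxB1 and SoxB2 do not separate. Sox1 differs from the SoxB2 gene Sox21 at 2 bases and from the SoxB1 gene Sox3 at 3. Sox1 and Sox21 each differ from Sox2 at 1 base and Sox3 at 2, Sox9 and Sox8 at 12 and 15, Sox4 and Sox11 at 15, and Sox5 and Sox6 at 16 and 18. Within groups, Sox4 and Sox11 are identical, Sox8 and Sox9 differ at 4 bases, and Sox5 and Sox6 at 7. The stretch lies at chr3:34650593-34650640 in Sox2, chr8:12396562-12396609 in Sox1 and chr11:112782948-112782995 in Sox9, all on the plus strand. On the minus strand it lies at chrX:60892903-60892950 in Sox3, chr14:118235516-118235563 in Sox21, chr17:25570130-25570177 in Sox8, chr13:28952749-28952796 in Sox4, chr12:27342166-27342213 in Sox11, chr6:143841181-143841228 in Sox5 and chr7:115489670-115489717 in Sox6. In each gene it falls within 1 coding exon. No run of 50 bases occurred in the representative transcripts of more than 1 of the 10 genes, so a read of that length would belong to 1 member. The next longest identical runs were 45 bases between Sox1 and Sox3 and 38 bases between Sox1 and Sox2 and between Sox2 and Sox21.

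The 10 genes lie on 10 different chromosomes. The coding transcript is a single exon in 6 of them (Sox1, Sox2, Sox3, Sox4, Sox11 and Sox21), has 3 exons in Sox8 and Sox9, and has 15 and 17 in Sox5 and Sox6. Of the single-exon genes, 2 were called higher and 3 lower in Setd5+/- NSCs. Of the others 2 were called higher and 2 lower, beside 30.3% and 30.9% of all genes tested.

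In Setd5+/- NSCs 4 members were called higher (Sox8, Sox4, Sox21 and Sox6), 5 were called lower (Sox5, Sox11, Sox2, Sox1 and Sox9) and Sox3 was not called. Among all genes tested, 30.3% were called higher and 30.9% lower, so most genes passed the test in one direction or the other, and the shares of the members are of that order. With the 3 values per library taken as they are, 4 members lay wholly above and 4 wholly below the WT values (32.4% and 32.9% of all genes), and Sox1 and Sox3 overlapped. None of the 10 changed by 2-fold or more in either direction, against 10.3% of genes that were higher and 6.38% that were lower by that much. The median log2 fold change was -0.11 over the members and -0.02 over all genes, and the median size of the change, without its sign, was 0.21 and 0.40. The members had means of 506 normalized counts or more in each library, while tested genes went down to a mean of 10. These comparisons with all genes were not matched for level. The count of members called lower was 3 without Setd5+/- replicate 1, and also 3 when the scaling was set from genes outside chromosome 1, because Sox1 and Sox9 were then not called.

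**Figure D1:**
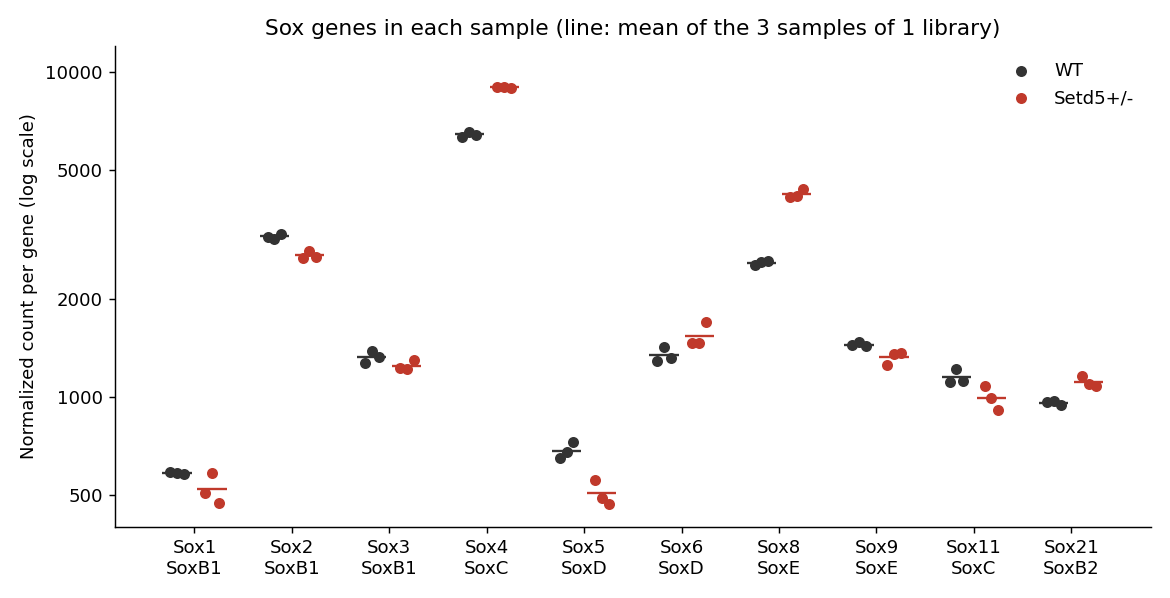
Normalized counts (log axis) of the 10 Sox genes in the 3 WT samples (black) and the 3 Setd5+/- samples (red), with a line at the mean of each 3. Sox4 and Sox8 show the widest gaps, at 8919 or more against 6540 or less for Sox4 and 4118 or more against 2621 or less for Sox8, while the values of Sox1 and Sox3 overlap.

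The SoxB1 genes, which hold neural progenitors in the stem cell state, were a little lower or not clearly different. Sox2 (chr3:34650405-34652461, plus strand), the gene most widely used to mark neural stem cells, had 3113, 3062 and 3183 normalized counts in WT and 2683, 2820 and 2695 in Setd5+/- NSCs. All 3 mutant values lay below all 3 WT values, and Sox2 fell by 0.19 on the log2 scale (interval -0.25 to -0.13, adjusted p = 3.64e-06), which is a level 0.876 times that of WT.

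Sox1 (chr8:12395295-12400126, plus strand), an early marker of cells committed to the neural fate, had 590, 583 and 581 normalized counts in WT and 509, 584 and 474 in Setd5+/-. One mutant value lay within the WT range. The log2 fold change was -0.17 (interval -0.31 to -0.03, adjusted p = 0.0458). This call was close to the threshold and was lost in turn without each of the WT replicates, without Setd5+/- replicates 1 and 3, without a filter on low values and with scaling from genes outside chromosome 1, where the adjusted p lay between 0.0859 and 0.244. The change was -0.10 without Setd5+/- replicate 3.

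Sox3 (chrX:60891366-60893430, minus strand), which overlaps with Sox2 in its role in progenitors, had 1275, 1382 and 1332 normalized counts in WT and 1226, 1219 and 1304 in Setd5+/-. The libraries overlapped, and the log2 fold change of -0.09 (interval -0.18 to 0.00) was not called (adjusted p = 0.0916). It was called when the libraries were scaled to equal totals (-0.13, adjusted p = 0.0173) and without Setd5+/- replicate 3 (-0.12, adjusted p = 0.0372).

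Sox21 (chr14:118233232-118237030, minus strand) is the SoxB2 member, a repressor that opposes SoxB1 activity and favours the exit from the progenitor state. It had 966, 975 and 945 normalized counts in WT and 1163, 1096 and 1084 in Setd5+/- NSCs. The 2 libraries did not overlap and Sox21 rose by 0.21 on the log2 scale (interval 0.11 to 0.31, adjusted p = 4.43e-04). The level of Sox2 per kilobase of exon was 5.99 times that of Sox21 in WT and 4.53 times in Setd5+/-. The ratio of 2 genes in the same library does not depend on how the libraries are scaled. This one changed by -0.40 on the log2 scale (interval -0.52 to -0.29).

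The SoxC genes went in opposite directions. Sox4 (chr13:28948919-28953713, minus strand), which takes part in neuronal maturation and in the survival of progenitors, had 6296, 6540 and 6401 normalized counts in WT. In Setd5+/- NSCs it had 8986, 8996 and 8919, every value above every WT value, and rose by 0.48 on the log2 scale (interval 0.45 to 0.52, adjusted p = 1.79e-18). This is 1.40 times the WT level. Sox11 (chr12:27334264-27342574, minus strand), the close relative of Sox4 that turns on neuronal genes, had 1115, 1218 and 1117 normalized counts in WT and 1080, 992 and 910 in Setd5+/-. These values did not overlap either, and Sox11 fell by 0.21 (interval -0.31 to -0.11, adjusted p = 1.80e-03). The level of Sox4 per kilobase of exon was 9.66 times that of Sox11 in WT and 15.6 times in Setd5+/-, a change of the ratio by 0.69 on the log2 scale (interval 0.59 to 0.80).

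The SoxD genes also parted. Sox5 (chr6:143828425-144781977, minus strand), known for its part in the timing of deep-layer cortical neurons, had 650, 677 and 726 normalized counts in WT and 558, 491 and 471 in Setd5+/-. It showed the largest fall of the 10 genes, with all mutant values below all WT values and a log2 fold change of -0.44 (interval -0.57 to -0.30, adjusted p = 5.33e-06). Sox6 (chr7:115470872-116038796, minus strand), its partner in dimers, had 1289, 1421 and 1318 normalized counts in WT and 1466, 1465 and 1707 in Setd5+/-. The lowest mutant value was just above the highest WT value, and Sox6 rose by 0.20 (interval 0.12 to 0.29, adjusted p = 1.43e-03). Without Setd5+/- replicate 3, the highest of its values, the rise was 0.13 (adjusted p = 0.0275). Sox6 stood at 1.90 times the level of Sox5 per kilobase of exon in WT and at 2.96 times in Setd5+/-, a change of 0.64 on the log2 scale (interval 0.48 to 0.80).

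The SoxE genes showed the widest split. Sox8 (chr17:25565892-25570686, minus strand), which acts beside its relatives in the oligodendrocyte lineage, had 2542, 2605 and 2621 normalized counts in WT and 4118, 4153 and 4373 in Setd5+/-. Its rise by 0.70 on the log2 scale (interval 0.65 to 0.76, adjusted p = 7.05e-18) was the largest change among the members, a level 1.63 times that of WT. Sox9 (chr11:112782224-112787760, plus strand), which is needed for progenitors to become glia, had 1445, 1475 and 1432 normalized counts in WT and 1257, 1356 and 1364 in Setd5+/-. Its values did not overlap, but the fall by 0.13 (interval -0.22 to -0.04, adjusted p = 0.0105) was not called without Setd5+/- replicate 1 (adjusted p = 0.0715) or with scaling from genes outside chromosome 1 (adjusted p = 0.0632). The level of Sox8 per kilobase of exon was 2.37 times that of Sox9 in WT and 4.22 times in Setd5+/-, so that the ratio changed by 0.83 on the log2 scale (interval 0.73 to 0.94).

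Ratios within SoxB1 moved less. The level of Sox2 per kilobase was 12.5 times that of Sox1 in WT and 12.3 times in Setd5+/- (change of -0.03 on the log2 scale, interval -0.18 to 0.12), and 2.35 times and 2.19 times that of Sox3 (-0.10, interval -0.21 to 0.01). Both intervals include 0, and they leave room for changes of up to about 0.2 on the log2 scale.

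**Figure D2:**
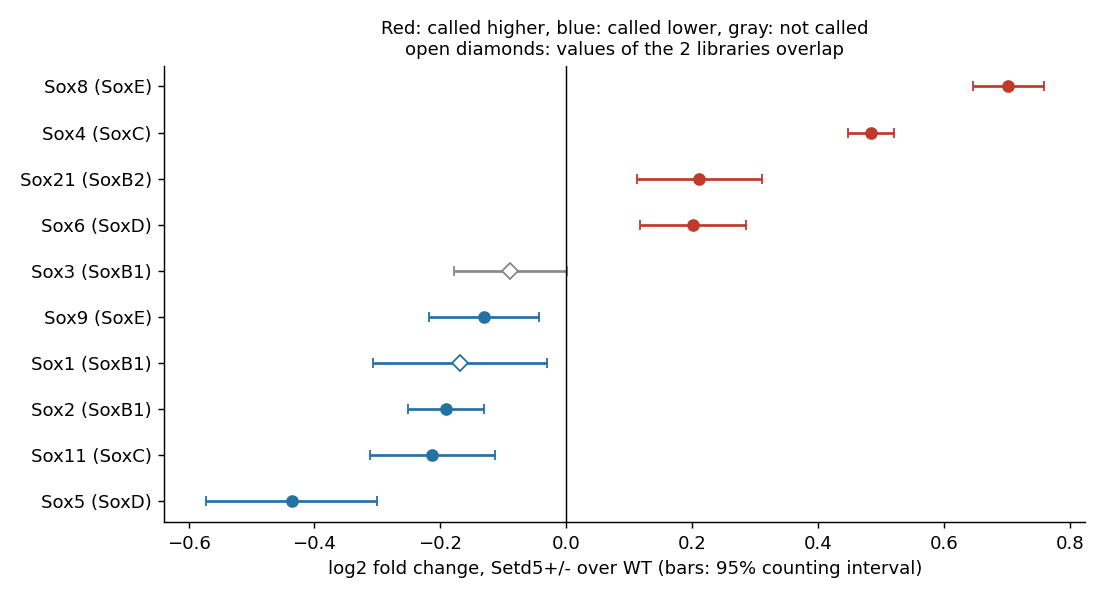
log2 fold change of normalized counts, Setd5+/- over WT, for the 10 Sox genes with 95% counting intervals (bars); red is called higher, blue called lower and gray not called, and open diamonds mark genes whose values in the libraries overlap. The changes run from -0.44 for Sox5 to 0.70 for Sox8, and the SoxC, SoxD and SoxE pairs each have 1 gene on either side of 0.

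Levels of different genes were compared per kilobase of annotated exon. In WT NSCs the order was Sox2 (1516 normalized counts per kilobase, interval 1478 to 1556), Sox4 (1337, 1314 to 1361), Sox8 (830, 807 to 854), Sox3 (644, 619 to 670), Sox9 (351, 338 to 364), Sox21 (253, 242 to 265), Sox11 (138, 133 to 144), Sox1 (121, 114 to 128), Sox6 (90.5, 87.0 to 94.1) and Sox5 (47.6, 45.1 to 50.3). No neighbours in this order had overlapping intervals. The intervals do not cover how reads were assigned on exon bases shared with another gene, such as 2616 bases of Sox4. Sox2, Sox4 and Sox8 stood above 97.2% or more of the tested genes, and Sox5 above 44.3%.

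In Setd5+/- NSCs Sox4 came first (1870 normalized counts per kilobase, interval 1836 to 1904), then Sox8 (1352, 1316 to 1388) and Sox2 (1328, 1285 to 1373), whose intervals overlapped. Sox3 followed (605), then Sox9 (321) and Sox21 (293), which overlapped, then Sox11 (120) with Sox1 (108), and Sox1 with Sox6 (104), which overlapped pairwise, and Sox5 (35.2) was last. The order depends on the length used: per kilobase of coding sequence, Sox4 was ahead of Sox2 in WT as well (4858 and 3259 normalized counts per kilobase), and Sox21 rose from place 6 to place 4 in both libraries.

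**Figure D3:**
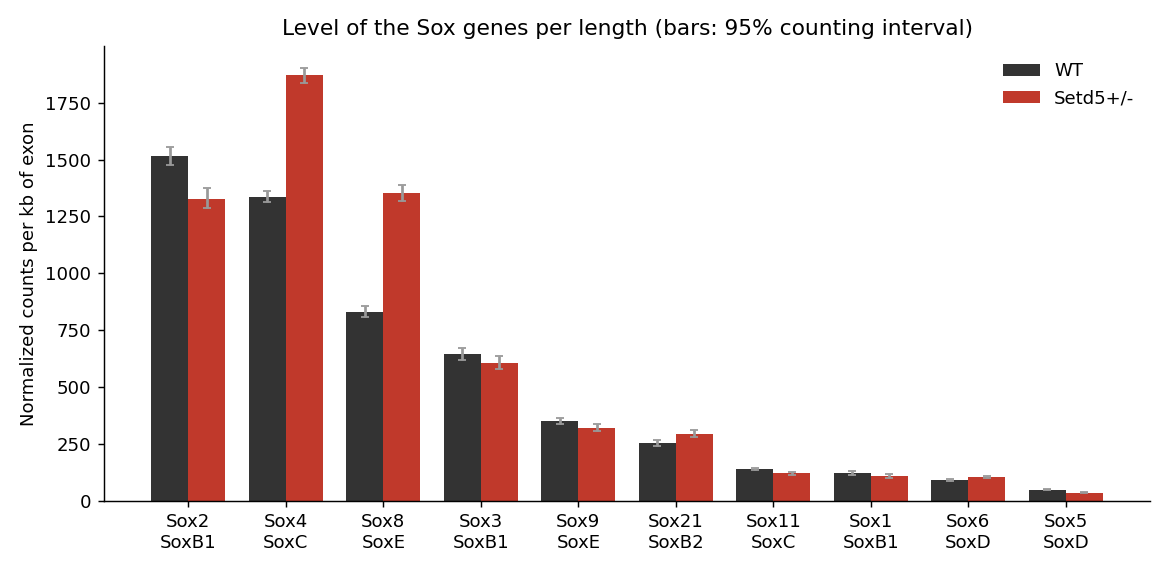
Level of each Sox gene in normalized counts per kilobase of exon in the WT library (black) and the Setd5+/- library (red), with 95% counting intervals. Sox2 is the tallest WT bar at 1516, Sox4 the tallest Setd5+/- bar at 1870, and the Setd5+/- bars of Sox8 and Sox2 stand at 1352 and 1328.

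Summed over the 10 genes, the level was 5330 normalized counts per kilobase in WT and 6137 in Setd5+/- NSCs. SoxB1 genes took 42.8% of it in WT and 33.3% in Setd5+/-, SoxC genes 27.7% and 32.4%, SoxE genes 22.2% and 27.3%, SoxB2 4.75% and 4.78%, and SoxD 2.59% and 2.27%. Each share depends on the total as well. The level itself was 2281 and 2042 normalized counts per kilobase for SoxB1, 1476 and 1990 for SoxC and 1181 and 1672 for SoxE. With coding length in place of exon length, the SoxB1 share was likewise lower in Setd5+/- and the SoxC and SoxE shares were higher, although each share itself moved. Not corrected for length, the members together held between 0.232% and 0.241% of all normalized counts in the WT samples and between 0.271% and 0.274% in the Setd5+/- samples. In RNA from whole cultures, fewer cells of a type and less RNA per cell cannot be told apart.

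Several members share exon bases with a gene on the opposite strand. The libraries were made with the TruSeq RNA v2 kit, which does not keep the strand of the RNA, so reads from the shared bases cannot be assigned to either gene. Sox4 shares 2616 exon bases with Gm26735, a long noncoding RNA gene on the opposite strand, and 54.1% of the 50-base words of its transcript occur there in reverse. Gm26735 had 3684, 3848 and 3739 normalized counts in WT and 4853, 4838 and 4680 in Setd5+/-, a rise by 0.35 on the log2 scale (adjusted p = 1.88e-12) beside the 0.48 of Sox4. Sox21 shares 713 exon bases with Gm4675 on the opposite strand, which rose from 211 to 270 normalized counts (0.35, adjusted p = 5.26e-03). Sox8 shares 329 with the antisense gene 2810468N07Rik, which rose from 317 to 398 (0.33, adjusted p = 1.11e-03). All 3 partners thus moved in the direction of the Sox gene on the other strand, and their changes cannot be told apart over the shared bases. Sox5 shares 1330 bases with its antisense gene Sox5os1, which reached means of just 4.97 (WT) and 4.37 (Setd5+/-) normalized counts, far below Sox5.

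A steep change was seen at the locus of Sox2. Sox2 lies inside the span of Sox2ot (chr3:34104270-34682619), a long noncoding RNA gene on the same strand that shares no exon base with Sox2. Sox2ot had 87.9, 132 and 146 normalized counts in WT and 1269, 1377 and 1295 in Setd5+/- NSCs. It rose by 3.45 on the log2 scale (interval 3.25 to 3.65, adjusted p = 6.38e-20), while Sox2 fell by 0.19. Of the 15 genes with a row in this span, 8 were tested. Of these 6 were called higher and 2 lower, Sox2 being 1 of the latter (30.3% and 30.9% of all genes tested). The other, Gm42693, fell from 14.9 to 5.96 normalized counts and passed the filter on low values only through the WT library. On the strand of Sox2, Gm27403 rose from 0.553 to 68.3 normalized counts, a row named Mir1897 from 2.76 to 103 and Gm42692 from 0.552 to 36.9, all upstream of Sox2. These small genes, and another row named Mir1897 (1.66 to 55.6), passed the filter on low values only through the Setd5+/- library. Their direction was thus fixed by the filter. They lie within the Sox2ot span, so reads of 1 long transcript may be counted on several of them. Whether any reads counted on Sox2 came from Sox2ot RNA was not tested.

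The genes beside the members were looked at in the same way. Over the 5 nearest tested genes on each side, the median log2 fold change was 0.78 for Sox2, 0.31 for Sox5, 0.20 for Sox6, 0.05 for Sox3, 0.01 for Sox9, -0.03 for Sox1, Sox4 and Sox21, -0.09 for Sox8 and -0.12 for Sox11. Sox8 (0.70) was above each of its 10 neighbours, whose highest value was 0.62. The median beside Sox2 cannot be set against Sox2 itself. Gm27403, Gm42692 and the rows named Mir1897, all in the Sox2ot span, had WT means between 0.552 and 2.76. They passed the filter on low values only through the Setd5+/- library, which fixed their direction. Sox5 was lower in Setd5+/- beside neighbours whose median was higher, and Sox6 matched the median of its neighbours at 0.20. Counting of these neighbours just those that passed a filter at 50 normalized counts, the median was 0.46 for Sox2, 0.31 for Sox4, 0.09 for Sox3, 0.04 for Sox21, 0.01 for Sox11 and -0.22 for Sox9, so that its sign turned for Sox4, Sox9, Sox11 and Sox21.

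**Figure D4:**
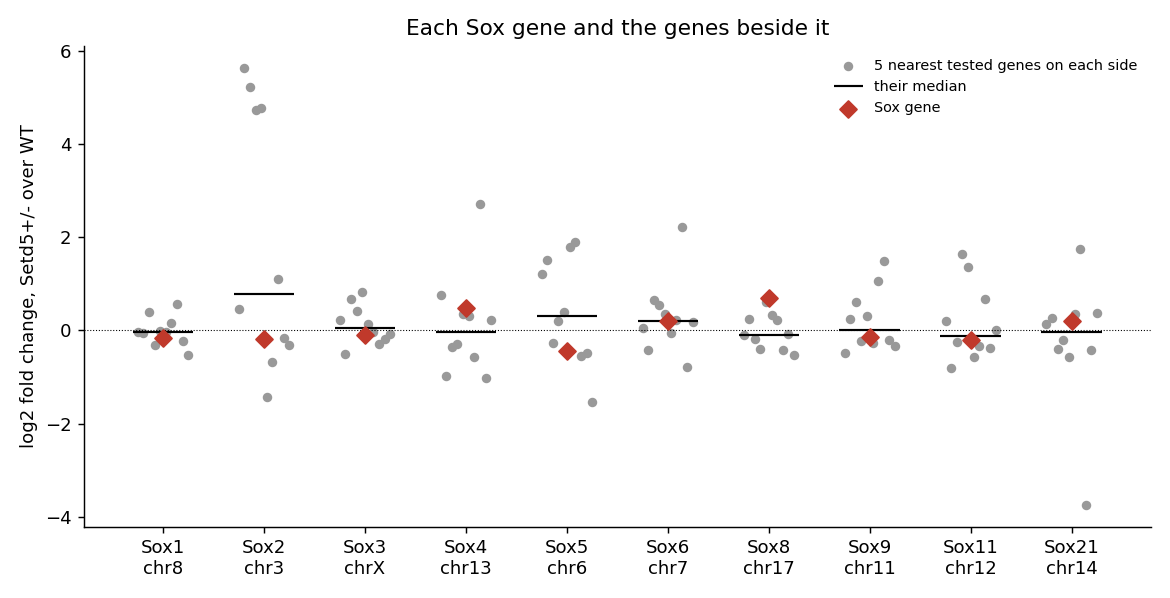
log2 fold change, Setd5+/- over WT, of each Sox gene (red diamond) and of the 5 nearest tested genes on each side (gray points, in order along the chromosome), with a line at their median. Beside Sox2 stand 4 points between 4.74 and 5.64, all inside the span of Sox2ot. These 4 passed the filter on low values only through the Setd5+/- library. Sox8 lies above all its neighbours.

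Of the 10 further Sox protein genes with values, 3 passed the filter on low values. Another 3 had a few reads and 4 were at 0 in all samples. The 3 tested were all called lower, as were 30.9% of all genes tested. One of them, Sox10, passed the filter only through the WT library, which fixed its direction. Sox10, the SoxE gene that is required for myelinating oligodendrocytes, had 317, 298 and 280 normalized counts in WT and 2.38, 0 and 2.38 in Setd5+/-. It was seen in 540 read pairs in WT and 2 in Setd5+/-, a level 188-fold higher in WT with an exact 95% counting interval of 51.7 to 1554. Of the SoxE genes, Sox10 was thus nearly absent from the Setd5+/- reads where Sox8 was higher and Sox9 slightly lower. Sox12, the remaining SoxC gene, had 823, 791 and 846 normalized counts in WT and 459, 450 and 469 in Setd5+/-, and fell by 0.83 on the log2 scale (interval -0.97 to -0.70, adjusted p = 3.17e-12). Sox13, the remaining SoxD gene, had 124, 160 and 123 normalized counts in WT and 51.2, 79.8 and 70.3 in Setd5+/- (-1.01, interval -1.36 to -0.66, adjusted p = 1.67e-05). It lies on chromosome 1, where the median log2 fold change over 1044 genes was 0.53, in the opposite direction. No member lies on chromosome 1. Besides Sox2ot, 7 noncoding rows have names that begin with Sox, and none of them reached 10 normalized counts in any sample.

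Sox proteins bind together with partner factors, mainly of the POU family in the case of SoxB1. All 9 partner genes listed were tested, and 6 were called higher and 3 lower, beside 30.3% and 30.9% of all genes tested. Their median log2 fold change was 0.40. Chd7, a chromatin remodeler that binds with Sox2 in NSCs, rose the most, from 1585 to 2570 normalized counts (0.70, interval 0.63 to 0.77, adjusted p = 9.00e-15). Pou3f1 fell the most, from 79.5 to 16.7 (-2.20, interval -2.85 to -1.55, adjusted p = 6.16e-08).

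Genes known to be regulated by Sox proteins changed in both directions, as did all genes tested (30.3% called higher and 30.9% lower). Of 9 SoxB1 targets tested, 4 were called higher and 5 lower, with a median of -0.29. Gli3, a transcription factor of the hedgehog pathway, rose the most, from 42.2 to 137 normalized counts (1.68, adjusted p = 3.81e-09), and the cell cycle gene Ccnd1 fell the most, from 3379 to 1731 (-0.96, adjusted p = 4.36e-20). Of 7 SoxE targets tested out of 8, 4 were called higher, 1 lower and 2 not called, with a median of 0.25. Apcdd1, an inhibitor of Wnt signaling that lies downstream of Sox9 in gliogenesis, rose the most, from 15.5 to 90.9 (2.49, adjusted p = 2.67e-09). Mbp, a myelin protein gene downstream of Sox10, fell the most, from 32.3 to 6.35 (-2.39, adjusted p = 3.03e-05). Mbp passed the filter on low values only through the WT library, which fixed its direction. The 4 SoxC targets held 1 gene called higher, 1 called lower, 1 not called and 1 at 0 in all samples. Tead2 rose from 1112 to 1653 (0.57, adjusted p = 6.41e-11) and Dcx, a microtubule protein of young neurons, fell from 248 to 26.2 (-3.23, adjusted p = 2.18e-14).

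**Figure D5:**
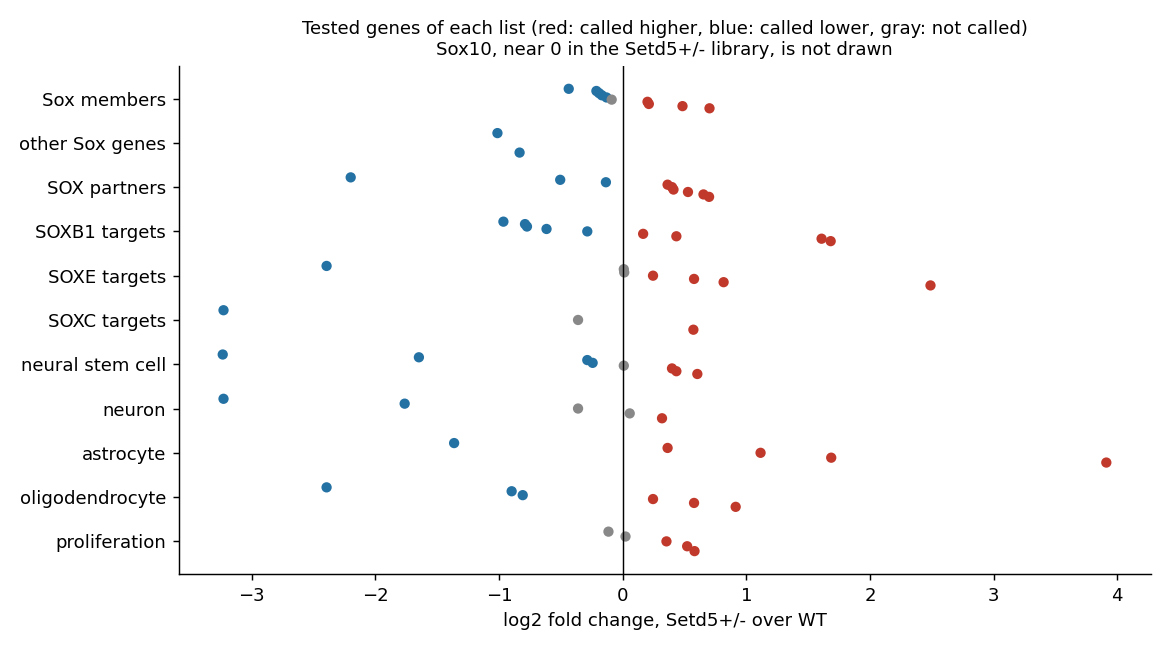
log2 fold change, Setd5+/- over WT, of the tested genes of each list (1 point per gene; red called higher, blue called lower, gray not called). The Sox members span -0.44 to 0.70, a narrower range than the SoxB1, SoxC and SoxE targets, and Sox10 is left out because its Setd5+/- reads were almost 0.

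The marker lists show what else differed between the cultures beside the Sox genes. Among all genes tested, 30.3% were called higher and 30.9% lower, and the counts of each list stand beside these shares. All 8 neural stem cell markers were present, of which 3 were called higher, 4 lower and 1 not called (median -0.12). Their summed level was 70791 to 70950 normalized counts in the WT samples and 50835 to 51367 in the Setd5+/- samples. This fall rested on Fabp7, the most abundant of them, which fell from 36015 to 11490 (-1.65, adjusted p = 6.25e-36). The other 7 summed to 34718 to 34934 in WT and to 39267 to 39982 in Setd5+/-, the opposite direction. Vim rose the most, from 9095 to 13822 (0.60, adjusted p = 4.81e-23), and Prom1 fell the most, from 24.6 to 2.38 (-3.23, adjusted p = 1.96e-05). Prom1 passed the filter on low values only through the WT library, which fixed its direction. Of the 5 astrocyte markers 4 were called higher and 1 lower (median 1.12, summed level 6442 to 6603 in WT and 8669 to 8741 in Setd5+/-). Gfap rose from 17.1 to 263 normalized counts (3.91, adjusted p = 9.97e-15) and Aldh1l1 fell from 380 to 147 (-1.36, adjusted p = 2.23e-12).

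Of the 7 oligodendrocyte markers 6 were tested, with 3 called higher and 3 lower (median -0.28), beside 30.3% and 30.9% of all genes tested. The summed level of these markers was 40717 to 41490 in WT and 23685 to 24530 in Setd5+/-. Cspg4 rose the most (769 to 1448 normalized counts, 0.91, adjusted p = 3.37e-15). Mbp, which passed the filter on low values only through the WT library, fell the most. The myelin gene Mog stood at 1.93 in WT and at 0 in Setd5+/-. Of the 7 neuronal markers 5 were tested, with 1 called higher, 2 lower and 2 not called (median -0.36). Among those called lower, Snap25 (19.1 to 5.56 normalized counts) passed the filter on low values only through the WT library, which fixed its direction. Map2 rose from 9983 to 12445 (0.32, adjusted p = 6.75e-16), Dcx fell the most, and Rbfox3, which marks mature neurons, had 7.46 in WT and 0 in Setd5+/-. The summed level of this list was 10333 to 10720 in WT and 12643 to 12755 in Setd5+/-, nearly all of it Map2, and without Map2 it was 498 to 524 in WT and 242 to 274 in Setd5+/-.

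Mesenchymal markers were near 0 throughout, with none tested, 1 of the 6 at 0 in all samples and summed levels of 5.79 to 14.1 in WT and 2.38 to 14.3 in Setd5+/-. Of the 5 neural crest and Schwann cell markers, Sox10 alone was tested, and the others were at or near 0. Their sum was 280 to 322 in WT and 10.7 to 21.5 in Setd5+/-, and 0 to 4.98 and 10.7 to 19.1 without Sox10. Of the 5 proliferation genes 3 were called higher, as were 30.3% of all genes tested, and 2 were not called (median 0.35). Ccnb1 rose the most, from 218 to 326 (0.58, adjusted p = 1.17e-05), and Cdk1 was at -0.11 (adjusted p = 0.145). The summed level of the 5 proliferation genes was 4760 to 4884 in WT and 6105 to 6304 in Setd5+/-. The part of these marker differences in the Sox values was not tested. Some genes stand in 2 lists, such as Dcx and Mbp.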

How the data were processed

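RNA-seq reads of the high-oxygen NSC samples were trimmed with Trimmomatic, aligned with Bowtie2 to mm10 and compared with DESeq2, per the submitters' processing notes. Libraries came from a kit that does not keep strand (TruSeq RNA v2). Versions and the program that counted reads are not given in the sources used here. The authors deposited 1 table of normalized counts (reads per gene divided by a DESeq2 size factor) for 53110 genes, of which 672 have no values. It also holds the authors' own comparison (fold changes and p-values), which was not used.

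Values of 1 or more had lost their decimal point. It was set back so that each value gave whole reads, with the deposited mean deciding in 1116 genes. All 52438 deposited means equalled those of the restored values. Tested on simulated data, 100% of 314628 values were restored.

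limma 3.58.1 in R 4.3.3 (lmFit, eBayes with trend) was run on log2(normalized count + 1), for genes with a mean of at least 10. In simulated data with 16287 genes tested it called 42 of 63 genes changed by 0.5 on the log2 scale, 54 of 68 changed by 1 and 66 of 69 changed by 2, and 7 of 16094 unchanged genes. Fold changes on this scale understate the change of genes with low counts. Counting intervals used a variance of 1.94 times the mean, estimated within genotypes (both reads of a pair were counted). Lengths and positions came from GENCODE M21 (GRCm38). Of the tested genes, 16255 had a position there.

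The members and the gene lists were chosen with earlier results of these data known, and their counts are a description. Named genes are the 10 members, Setd5, other genes with a name that begins with Sox, and the member of each list that fell most and the one that rose most. Genes overlapping a member, those in the Sox2ot span, Mog, Rbfox3, Snap25 and Fabp7 were chosen after their values were seen. Alternatives were other pseudocounts, filters and scalings, a normal test of summed reads, a fold threshold, a replicate block, each sample left out, coding length and, added after seeing the data, marker sums without the most abundant gene.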

Additional observations from a re-analysis of the deposited data

How the results depend on the processing

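No alternative turned the direction of any member. With scaling set from genes outside chromosome 1 the members called lower numbered 3. Over the samples left out in turn they numbered between 3 and 5, while those called higher stayed at 4. With a change of at least 1 on the log2 scale also required, 0 members were called higher and 0 lower, against 1668 and 1028 of all genes, and Setd5 at -0.37 was no longer called. With coding length, the shares of the summed level in WT and Setd5+/- were 30.8% and 23.5% for SoxB1, 7.55% and 7.50% for SoxB2, 37.9% and 42.5% for SoxC, 5.46% and 4.70% for SoxD and 18.3% and 21.7% for SoxE. These shares moved by construction, since untranslated exons were left out. The cause of the other moves was not tested.

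Replicate numbers did not pair the samples (correlations of same-numbered samples 0.0049, 0.0015 and -0.0071). With the replicate block 4 members were called higher and 5 lower, and 4934 and 5012 of all genes. Scaling moved the median log2 fold change of all genes from -0.02 to -0.06 with equal totals and to 0.02 without chromosome 1. Sox3 crossed the threshold with the former, and Sox1 and Sox9 with the latter. Over the 16 alternatives the log2 fold change of Sox8 ranged from 0.66 to 0.74, of Sox4 from 0.44 to 0.52 and of Sox5 from -0.51 to -0.39. Depth limits the members little, but it measures no spread between cultures or clones. Without its most abundant gene, an alternative chosen after seeing the data, the log2 ratio of a list's summed level turned from -0.47 to 0.19 for neural stem cell, from 0.28 to -0.99 for neuronal and from -4.32 to 2.29 for neural crest markers.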
